A study of Oryza sativa with 6 samples.

Results

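Heat shock proteins and heat shock factors of rice were followed in developing seeds in which the gene *OsMADS29* was silenced. Their genes were chosen by name, from a symbol or synonym in the array annotation that began with Hsp or HSP and a number, with Hsf, with CLPB, or with DNAJ, DjA, DjB or DjC, with or without the prefix Os. The rule found 50 of the 17905 genes that had a probe set of their own on the Affymetrix rice genome array. They were 19 small heat shock proteins, 3 large chaperones of the HSP101/CLPB type, 3 HSP90 proteins, 5 J proteins (HSP40) and 20 heat shock factors. No gene of the HSP70 type carried a name that met the rule. Each gene was read from its brightest probe set, a group of short probes that together measure a transcript.

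The study asked which genes change in the seed when *OsMADS29*, a MADS-box transcription factor gene of the B-sister class, is silenced. Whole seeds of the variety PB1 were taken at stage S3, which the labels place 5 to 10 days after pollination. The WT group was 3 arrays of wild-type plants. The MADS29-KD group was 3 arrays of RNAi plants, in which a transgene directs the breakdown of the *OsMADS29* transcript. The sources used here give neither the promoter of that transgene nor the transformed line behind each array. The samples are described as biological replicates, and p-values measure only the spread between these samples.

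As background, heat shock proteins are chaperones that hold, refold or release other proteins, and they accumulate in most organisms under heat. Small heat shock proteins bind proteins that begin to unfold, HSP101/CLPB proteins pull aggregates apart, and J proteins hand clients to HSP70. Heat shock factors are the transcription factors that bind the promoters of these genes. In plants many of the same genes are also switched on without heat while the embryo matures, and in sunflower and Arabidopsis the factor HSFA9 takes part in that.

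*OsMADS29* itself had log2 signals of 7.16, 6.60 and 7.30 in WT replicates 1, 2 and 3, and of 5.17, 5.11 and 4.90 in MADS29-KD replicates 1, 2 and 3. Every MADS29-KD array lay under every WT array. The log2 difference, MADS29-KD minus WT, was −1.96 ± 0.21 (SE of the fit, n = 3 and 3), with an adjusted p of 0.00725 in limma, a linear model fitted across all probe sets. By an exact permutation test (two-sided) p was 0.10, the smallest possible with 3 arrays against 3. Arrays of the same group correlated at 0.990 to 0.998 over all probe sets and arrays of different groups at 0.955 to 0.963. WT replicate 2 and MADS29-KD replicate 1 had 5′ actin signals of 2.33 and 2.75, at background, where the other 4 arrays had 5.86 to 6.42, and results within each of these array classes are given further on. Background was read on each array from 74 probe sets for sequences foreign to rice and lay between 2.78 and 2.92 on the log2 scale.

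Transcripts of 8 of the 19 small heat shock proteins and of the cytosolic disaggregase *CLPB1* rose in MADS29-KD seeds. The HSP90 genes, 1 called higher and 2 lower, changed by less than 2-fold. Of the 50 genes, 16 (32.0%) were called higher in MADS29-KD at an adjusted p under 0.05, beside 10.8% of all genes. Of the others, 4 (8.0%) were called lower, beside 14.8% of all genes, and 30 were not called. With a change of at least 2-fold required as well, 13 were higher, beside 4.91% of all genes, and 0 were lower, beside 5.92%. At an unadjusted p (limma) under 0.05, 32 of the 50 passed, and 8 of those not called lay above 0 and 4 below. The share of all genes at that threshold is not given here, so these counts cannot be read against it. The WT and MADS29-KD arrays did not overlap in 40 of the 50 genes (80%), beside 59.1% of all genes. The median log2 difference was 0.27 over the 50 genes and 0.01 over all genes. Of the 50 genes, 10 lay at background on all 6 arrays, namely *HSFA2A*, *HSFA2B*, *HSFA4D*, *HSFB4B*, *HSFC1A*, *HSFC1B*, *OsHsp16.6*, *OsHsp17.8*, *OsHsp21.9* and *OsHsp23.2*. Neither a fold nor a bound can be given for those genes, and they are counted among the 30 not called.

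**Figure D1:**
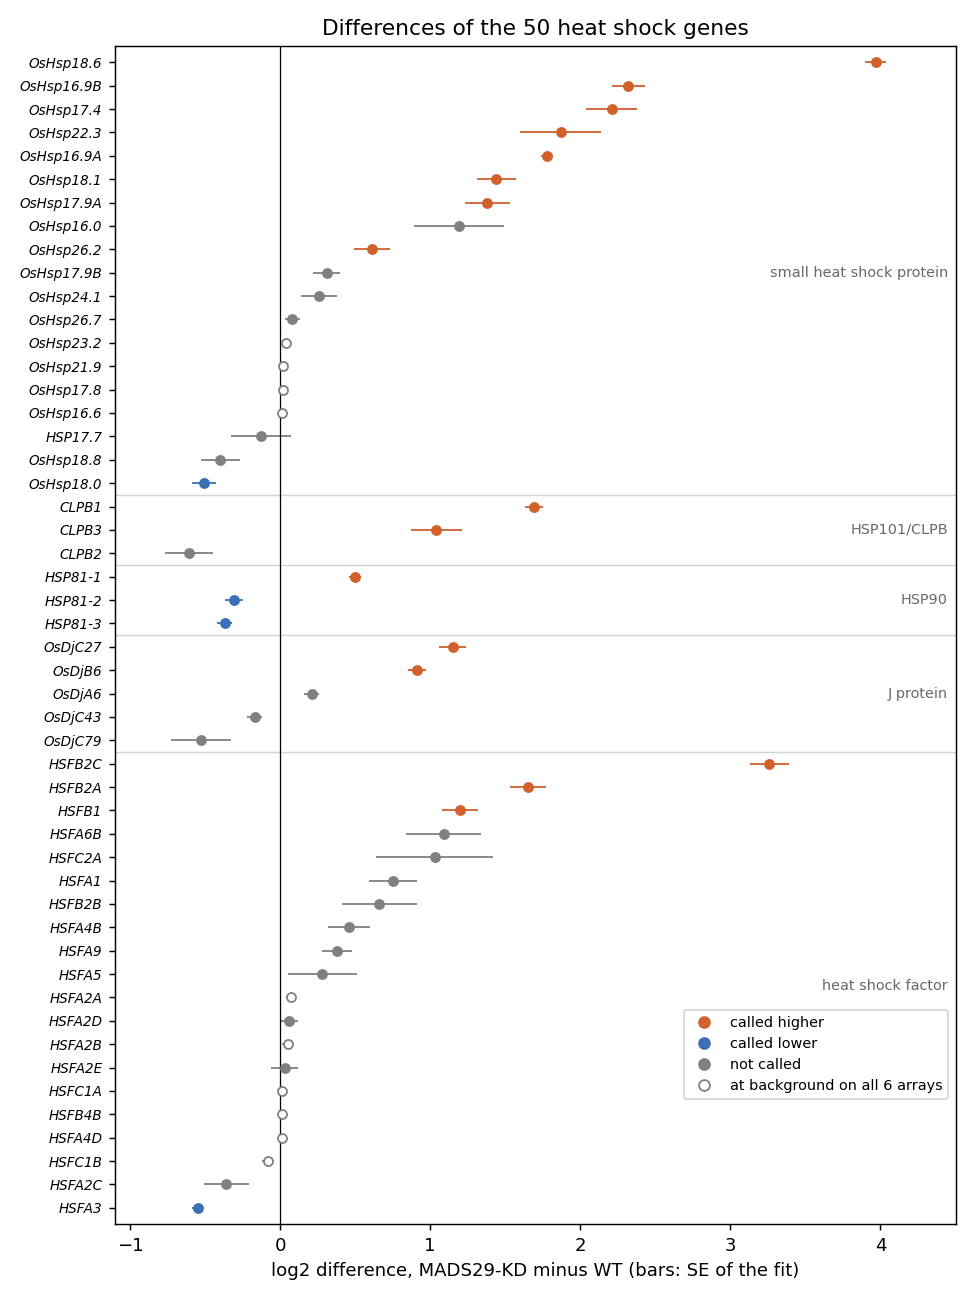
Log2 difference between MADS29-KD and WT (x axis) for each of the 50 genes (y axis, grouped by class), with bars for the SE of the fit and open circles for genes at background on all 6 arrays. The differences run from −0.61 for CLPB2 to 3.97 for OsHsp18.6, and OsHsp18.0, HSP81-3 and HSP81-2, called lower, lie between −0.51 and −0.31. HSFA3, also called lower, was at background on all MADS29-KD arrays and has only a bound.

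In the small heat shock proteins, 8 of 19 genes (42.1%) rose, beside 10.8% of all genes, 1 (5.26%) was called lower, beside 14.8%, and 10 were not called, and the median log2 difference was 0.31. The highest difference of the 50 genes belonged to *OsHsp18.6* (gene ID 4330933). Its log2 signals were 3.87, 3.85 and 3.76 in WT replicates 1 to 3 and 7.91, 7.68 and 7.79 in MADS29-KD replicates 1 to 3. All WT arrays were low and close to each other, all MADS29-KD arrays were high, and the groups did not overlap. The difference was 3.97 ± 0.07, or 15.7-fold (limma, adjusted p = 0.000104). This probe set is of a kind (s_at) that can also bind transcripts of related genes. Of the other probe sets of *OsHsp18.6*, 1 gave 2.87 ± 0.19 (adjusted p = 0.00177) and 1 was at background on all arrays.

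*OsHsp16.9A* (gene ID 4325697) had log2 signals of 7.63, 7.63 and 7.65 in WT and 9.35, 9.48 and 9.42 in MADS29-KD. The 3 WT arrays were nearly equal, and the MADS29-KD arrays all lay above them. Its difference was 1.78 ± 0.04, or 3.43-fold (limma, adjusted p = 0.000119). *OsHsp16.9B*, the next protein-coding gene in the RefSeq gene order, had 4.16, 4.32 and 4.35 in WT and 6.46, 6.55 and 6.79 in MADS29-KD. Here too the groups lay apart, by 2.32 ± 0.11, or 5.00-fold (adjusted p = 0.000758). The RefSeq record of *OsHsp16.9A* also lists the name HSP16.9B, so the 2 names do not fully separate these genes.

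*OsHsp17.4* had log2 signals of 3.13, 3.47 and 3.41 in WT and 5.80, 5.29 and 5.54 in MADS29-KD, a difference of 2.21 ± 0.17 (limma, adjusted p = 0.00255). *OsHsp18.1* had 3.93, 4.06 and 3.99 in WT and 5.65, 5.47 and 5.18 in MADS29-KD, a difference of 1.44 ± 0.13 (adjusted p = 0.00425), and its other probe set gave 1.71 ± 0.07 (adjusted p = 0.000589). In neither gene did the groups overlap. *OsHsp17.9A* had 6.83, 7.20 and 6.69 in WT and 8.28, 8.38 and 8.18 in MADS29-KD, a difference of 1.38 ± 0.15 (adjusted p = 0.00748). The lowest MADS29-KD array of *OsHsp17.9A* was above the highest WT array, which was WT replicate 2.

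*OsHsp22.3* had log2 signals of 3.04, 3.79 and 3.01 in WT and 5.43, 5.09 and 4.93 in MADS29-KD. WT replicate 2 stood above the other WT arrays but under all MADS29-KD arrays. Its difference was 1.87 ± 0.27 (limma, adjusted p = 0.017). *OsHsp26.2* rose by 0.61 ± 0.12 (adjusted p = 0.0431), the smallest rise called among the small heat shock proteins, on an s_at probe set. The calls of both genes depended on single arrays: with 1 array left out, the adjusted p went up to 0.0718 for *OsHsp22.3* (without WT replicate 3) and to 0.156 for *OsHsp26.2* (without WT replicate 3). *OsHsp22.3* was not called without any 1 of the 6 arrays except WT replicate 2, and *OsHsp26.2* without any except MADS29-KD replicate 3.

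*OsHsp18.0* was called lower on its brightest probe set, of the s_at kind, with 5.95, 6.16 and 5.96 in WT and 5.63, 5.43 and 5.47 in MADS29-KD, a difference of −0.51 ± 0.08 (limma, adjusted p = 0.0251). Another probe set of the same gene lay in the opposite direction. Its signals were 4.14, 4.62 and 4.32 in WT and 5.65, 5.17 and 4.99 in MADS29-KD, a difference of 0.91 ± 0.22 that was not called (adjusted p = 0.0756). The third probe set of the gene differed by −0.14, so no single direction can be given for *OsHsp18.0*. The call on the brightest probe set was also lost without WT replicate 1 (adjusted p = 0.0692), WT replicate 3 (0.0796), MADS29-KD replicate 2 (0.0868) or MADS29-KD replicate 3 (0.0878).

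Of the small heat shock protein genes not called, *OsHsp16.0* had the largest difference. It was at background on all WT arrays, at 2.75, 2.74 and 2.74, and at 4.48, 3.96 and 3.36 in MADS29-KD. The MADS29-KD arrays were spread over more than 1 log2 unit, all above WT. The fold was at least 2.21 against background, with an adjusted p of 0.079 in limma. *OsHsp17.9B* (0.31), *OsHsp24.1* (0.26), *OsHsp26.7* (0.08), *HSP17.7* (−0.13) and *OsHsp18.8* (−0.40) were measured above background and were not called.

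**Figure D2:**
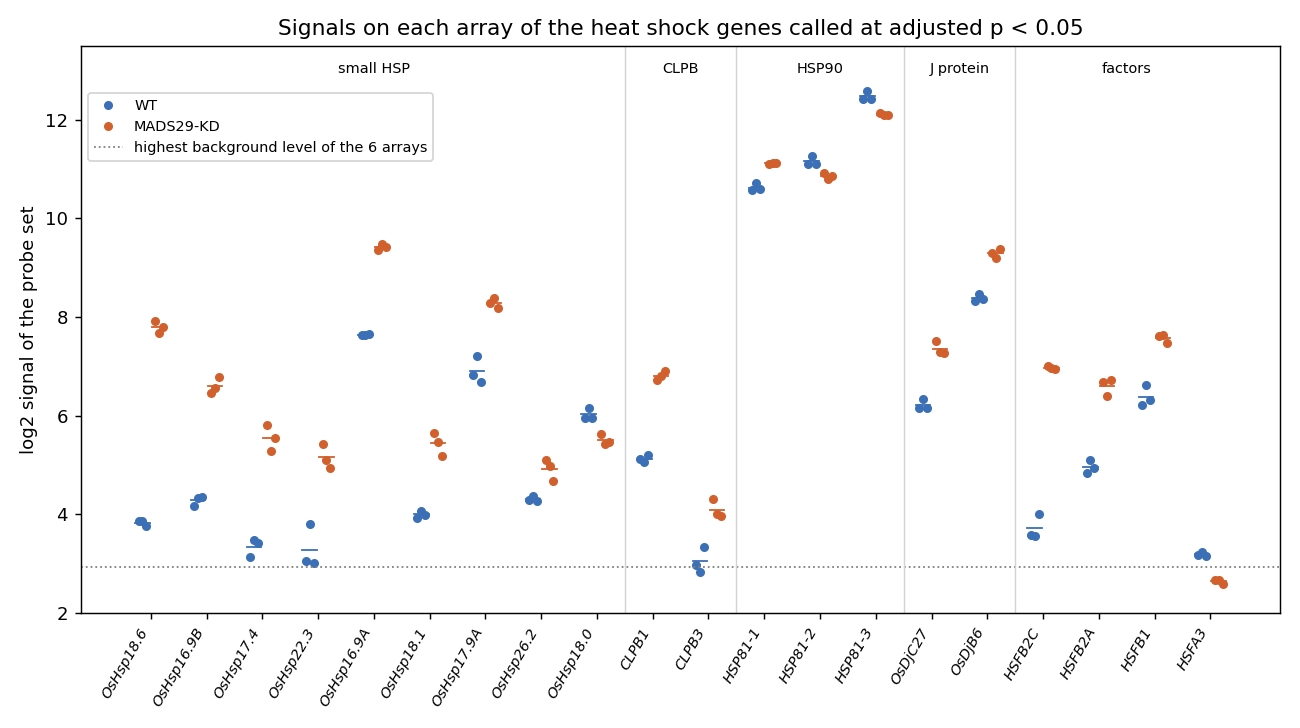
Log2 signal (y axis) on each of the 6 arrays for the 20 genes called at an adjusted p under 0.05, by class, with 1 point per array, a bar at each group mean and a dotted line at the highest background level of the 6 arrays, 2.92. The differences of OsHsp18.6 (3.97) and HSFB2C (3.26) are the largest of the 20, and the WT and MADS29-KD points of each gene do not overlap, as in 59.1% of all genes.

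Several of the small heat shock protein genes are neighbours, and neighbours did not always behave alike. In the gene order of the RefSeq assembly ASM3414082v1, *OsHsp16.6*, *OsHsp17.9B*, *OsHsp16.9A* and *OsHsp16.9B* follow each other with at most 1 protein-coding gene between them. The first was at background on all arrays, *OsHsp17.9B* differed by 0.31 ± 0.09 without being called (limma, adjusted p = 0.104), and the other two rose. In the other run, *OsHsp17.9A* is followed after 4 protein-coding genes by *OsHsp17.4*, *OsHsp18.1* and *HSP17.7*, which are adjacent. Here *OsHsp17.9A*, *OsHsp17.4* and *OsHsp18.1* rose, and *HSP17.7*, at 4.46, 5.03 and 4.72 in WT and 4.90, 4.46 and 4.45 in MADS29-KD, had overlapping groups. Differences between neighbouring genes were not tested, and closely related neighbours can share probes.

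**Figure D3:**
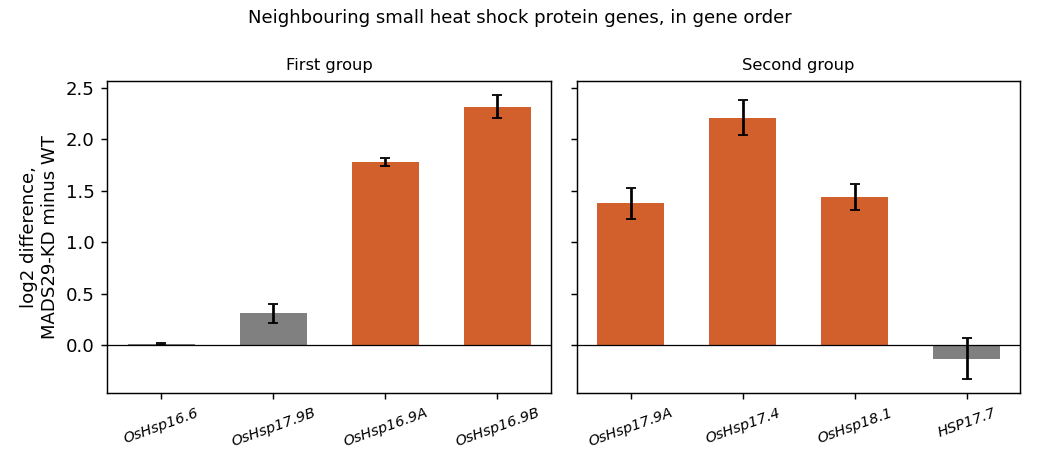
Log2 difference between MADS29-KD and WT (y axis) of small heat shock protein genes that lie near each other, drawn in gene order, with error bars for the SE of the fit and called genes in orange. OsHsp16.6 lies at 0.01 and is at background on all arrays, whereas OsHsp16.9A and OsHsp16.9B differ by 1.78 and 2.32, and HSP17.7 lies at −0.13 beside OsHsp18.1 at 1.44.

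Of the large disaggregating chaperones, 2 of 3 (66.7%) rose, beside 10.8% of all genes, and none was called lower, beside 14.8%. *CLPB1* (gene ID 4339343), which encodes the cytosolic HSP101, had log2 signals of 5.11, 5.06 and 5.19 in WT and 6.72, 6.80 and 6.90 in MADS29-KD. Both groups were tight and lay far apart, and the difference was 1.69 ± 0.06, or 3.22-fold (limma, adjusted p = 0.000393). *CLPB3*, named CLPB-M in its record, had 2.97, 2.83 and 3.33 in WT, close to background, and 4.30, 4.0 and 3.97 in MADS29-KD. Its difference was 1.04 ± 0.17 (adjusted p = 0.0233) on an s_at probe set, and the call was lost without any 1 of the arrays except WT replicate 3, with adjusted p from 0.0578 without WT replicate 2 to 0.0940 without WT replicate 1. *CLPB2*, named CLPB-C, lay on the other side, with 7.56, 7.92 and 7.66 in WT and 7.33, 7.11 and 6.86 in MADS29-KD. Its groups did not overlap, but its difference of −0.61 ± 0.16 was not called (adjusted p = 0.0852).

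The HSP90 genes, whose proteins keep signalling proteins and receptors in an active form, all passed the test. In MADS29-KD 1 of them (33.3%) was higher, beside 10.8% of all genes, and 2 (66.7%) were lower, beside 14.8%. *HSP81-1* (also named HSP82) had 10.57, 10.72 and 10.59 in WT and 11.11, 11.13 and 11.13 in MADS29-KD, and rose by 0.50 ± 0.04 (limma, adjusted p = 0.00411). Its other probe set differed by 0.09 and was not called (adjusted p = 0.335). *HSP81-2* was lower by a log2 difference of −0.31 ± 0.06 (adjusted p = 0.0384) and *HSP81-3* by −0.37 ± 0.05 (adjusted p = 0.0119). These 2 genes lie close together, with 2 protein-coding genes between them. *HSP81-3* was read from an s_at probe set, which can also bind transcripts of related genes, so the 2 calls may not be separate measurements. The call of *HSP81-2* was lost without any 1 of the 6 arrays, with adjusted p from 0.0505 without WT replicate 2 to 0.111 without MADS29-KD replicate 2. That of *HSP81-3* was lost without MADS29-KD replicate 2 (0.0563) or MADS29-KD replicate 3 (0.0520), and the mean over its probe sets gave −0.14 (0.630).

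*HSP81-3* had 5 probe sets, and 2 of the dimmer ones followed the 5′ actin signal rather than the group. On one of them the signals were 10.45, 8.70 and 10.33 in WT and 8.96, 10.36 and 10.17 in MADS29-KD. The other had 8.56, 7.14 and 8.45 in WT and 7.09, 8.12 and 7.90 in MADS29-KD. In both, WT replicate 2 and MADS29-KD replicate 1 were low, which are the arrays with 5′ actin at background, and the differences between groups were 0.00 and −0.34. The brightest probe set of *HSP81-3*, from which the call was made, had 12.43, 12.58 and 12.43 in WT and 12.13, 12.09 and 12.10 in MADS29-KD and did not share this pattern.

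**Figure D4:**
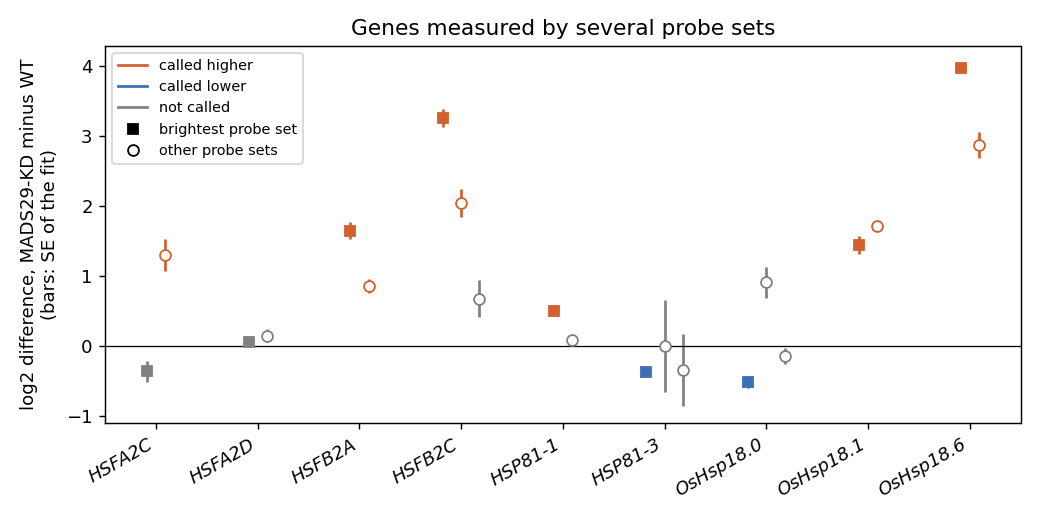
Log2 difference between MADS29-KD and WT (y axis, bars for the SE of the fit) on each probe set above background of the 9 genes that had more than 1, with squares for the brightest probe set and circles for the others, coloured by call. Probe sets lie on the same side of 0 in OsHsp18.6, OsHsp18.1, HSFB2A and HSFB2C and on opposite sides in OsHsp18.0 and HSFA2C.

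Of the J proteins, 2 of 5 (40%) rose, beside 10.8% of all genes, and none was called lower, beside 14.8%. Both have names of the endoplasmic reticulum type, as do *OsDjC43* and *OsDjC79*, which were not called. *OsDjC27* (ERdj3A) had 6.15, 6.33 and 6.15 in WT and 7.52, 7.29 and 7.26 in MADS29-KD, a difference of 1.15 ± 0.09 (limma, adjusted p = 0.00316). *OsDjB6* (ERdj3B) had 8.33, 8.46 and 8.36 in WT and 9.30, 9.20 and 9.37 in MADS29-KD, a difference of 0.91 ± 0.06 (adjusted p = 0.00176). In both genes every MADS29-KD array was above every WT array. The others were not called, with 0.21 for *OsDjA6*, −0.17 for *OsDjC43* (ERdj2) and −0.53 for *OsDjC79* (ERdj7).

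Among the heat shock factors, 3 of 20 (15%) rose, beside 10.8% of all genes, 1 (5.0%) was called lower, beside 14.8%, and 16 were not called. The share that rose was thus near that over all genes, and the median log2 difference was 0.17. The 3 that rose were all of class B, which lacks the activation motif of class A and in Arabidopsis includes repressors. Of the 5 class B genes 3 were called higher, of the 12 class A genes 1 was called lower, and of the 3 class C genes none was called. Whether the classes differ was not tested. *HSFB2C* had log2 signals of 3.58, 3.55 and 4.0 in WT and 7.01, 6.96 and 6.95 in MADS29-KD, with all WT arrays near background and all MADS29-KD arrays high. Its difference of 3.26 ± 0.13, or 9.60-fold (limma, adjusted p = 0.000567), was the largest among the factors. Another of its probe sets rose by 2.04 ± 0.20 (adjusted p = 0.0052), and the third differed by 0.68 and was not called (adjusted p = 0.178).

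*HSFB2A* had 4.83, 5.10 and 4.93 in WT and 6.69, 6.40 and 6.72 in MADS29-KD, a difference of 1.65 ± 0.12 (limma, adjusted p = 0.00224). Its other probe set rose by 0.86 ± 0.10 (adjusted p = 0.00816). *HSFB1* had 6.21, 6.61 and 6.32 in WT and 7.62, 7.63 and 7.48 in MADS29-KD, a difference of 1.20 ± 0.12 (adjusted p = 0.00568). The groups of both genes lay apart. Of the class B genes not called, *HSFB2B* differed by 0.66, with WT above background on only 1 array, and *HSFB4B* was at background.

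*HSFA3*, which in Arabidopsis acts downstream of the drought factor DREB2A, was the only factor called lower. Its log2 signals were 3.17, 3.24 and 3.15 in WT, just above background, and 2.66, 2.66 and 2.58 in MADS29-KD, at background on every array. It was thus at least 1.23-fold lower (limma, adjusted p = 0.00166). *HSFA9*, the seed maturation factor of other plants, had 4.39, 4.48 and 4.40 in WT and 4.64, 4.75 and 5.01 in MADS29-KD. Its groups did not overlap, but the difference of 0.38 ± 0.10 was not called (adjusted p = 0.0973). *HSFA1*, the type that starts the heat response in Arabidopsis and tomato, had 6.11, 5.68 and 6.11 in WT and 6.72, 6.90 and 6.54 in MADS29-KD, a difference of 0.75 ± 0.16 that missed the threshold (adjusted p = 0.0565).

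Other factors differed by more than 1 without being called. *HSFA6B* differed by 1.09 ± 0.25 (limma, adjusted p = 0.068) and *HSFC2A* by 1.03 ± 0.39 (adjusted p = 0.168). WT signals were near background, at 2.67, 3.06 and 2.65 for *HSFA6B* and 2.94, 2.58 and 2.93 for *HSFC2A*, which limits both differences. In both genes, as in *OsHsp16.0*, MADS29-KD replicate 1 was the highest array and replicate 3 the lowest of the group. *HSFA2C* differed by −0.36 ± 0.15 on its brightest probe set (adjusted p = 0.185) and by 1.30 ± 0.23 on its other one, which was called higher (adjusted p = 0.0308). The records of *HSFA2C* and *HSFA2D* also carry names of an acireductone dioxygenase, so their probe sets may not measure a heat shock factor. Without these 2 genes the median of the factors was 0.33.

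Differences were also computed within each class of arrays, between WT replicate 2 and MADS29-KD replicate 1, whose 5′ actin signal was at background, and between the groups of the other 4 arrays. All 20 genes called kept the same sign in both classes. That was fixed beforehand, because their WT and MADS29-KD arrays did not overlap, so only the sizes can be compared. For *OsHsp18.6* the pair gave 4.06 and the 4 arrays 3.92, for *CLPB1* they gave 1.66 and 1.70, and for *OsHsp16.9A* 1.72 and 1.81. The 4 arrays taken alone called 14 genes higher and 6 lower, beside 2576 and 3474 of all 57194 probe sets. *CLPB3* (limma, adjusted p = 0.0844) and *OsHsp26.2* (0.136) were not among the 14. The 6 included *OsHsp18.8* (−0.42, adjusted p = 0.00874), which the main fit did not call. They also included *HSFC1B* (−0.12, adjusted p = 0.0342), which was at background on every array.

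**Figure D5:**
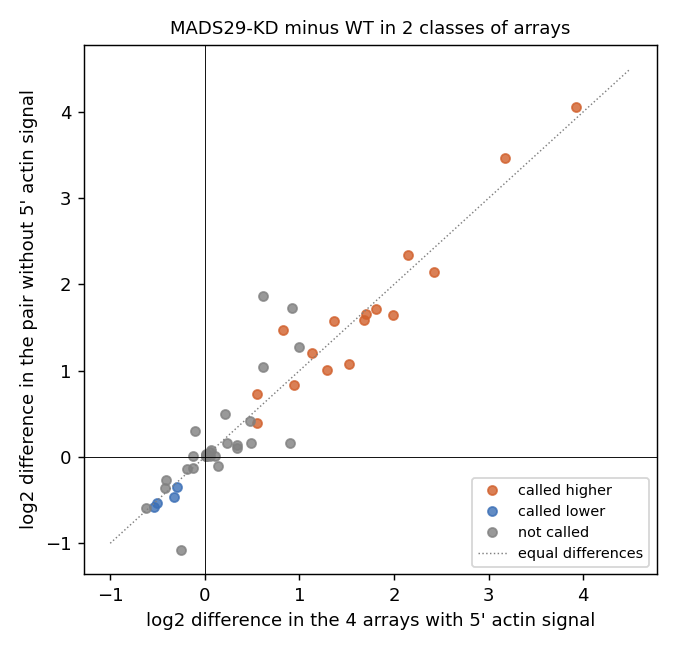
Log2 difference of each of the 50 genes between MADS29-KD and WT in the 4 arrays with 5′ actin signal (x axis) and in the pair without it (y axis), 1 point per gene, coloured by call, with a dotted line where both are equal. All 20 called genes have the same sign in both, as they must where the groups do not overlap, with OsHsp18.6 at 3.92 and 4.06.

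Lists of genes that work with these chaperones were read from the same fit. Of 14 genes for protein folding in the endoplasmic reticulum, 1 (7.14%) was called higher, beside 10.8% of all genes, and 4 (28.6%) lower, beside 14.8%, with a median log2 difference of −0.31. The one called higher was *BIP1*, the HSP70 of that compartment, at 0.17 ± 0.03 (limma, adjusted p = 0.0396). Those with the smallest adjusted p among the lower ones were the calreticulin gene *CRT1* (−0.86 ± 0.05, adjusted p = 0.00153) and the protein disulphide isomerase genes *OsPDIL2-2* (−0.93 ± 0.06, adjusted p = 0.00173) and *OsPDIL1-1* (−0.29 ± 0.04, adjusted p = 0.0116). Of 3 genes taken by name as cytosolic co-chaperones, without a check of that role, none was called, beside 10.8% of all genes higher and 14.8% lower. Among them *OsSGT1*, a partner of HSP90, differed by 0.73 (limma, adjusted p = 0.0589).

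A list of other heat response genes was taken by name, mostly FtsH and Clp genes, without a check for a role in heat. Of its 17 genes, 4 (23.5%) were called higher, beside 10.8% of all genes, and none lower, beside 14.8%, and the median was 0.07. They included the Clp ATPase gene *CLPD1* (0.95 ± 0.07, limma, adjusted p = 0.00279), the FtsH protease gene *FTSH2* (0.57 ± 0.04, adjusted p = 0.0025) and the ascorbate peroxidase gene *APX2* (0.35 ± 0.04, adjusted p = 0.00591). *DREB2A* and *DREB2B*, upstream of heat shock factors in Arabidopsis, were not called, with 0.08 and −0.39. Of 12 genes listed as regulators of seed maturation only *OsVP1*, the rice counterpart of ABI3, was called (8.33% higher, near the 10.8% of all genes). It differed by 0.97 ± 0.10 (limma, adjusted p = 0.00658), and the median of the list was 0.02. The list took *HAP3A*, *HAP3B*, *HAP3C*, *HAP3F*, *HAP3H* and *HAP3I* by name, without a check for a role in the seed. Of these, *HAP3F* and *HAP3H* were at background on all arrays.

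Markers of seed tissues also differed between the groups, where 10.8% of all genes were called higher and 14.8% lower. All 6 embryo and aleurone markers rose, and their mean log2 signal was 5.33 to 5.41 in WT and 9.63 to 9.72 in MADS29-KD. Of 10 endosperm markers 5 rose, with a mean of 10.96 to 11.19 in WT and 11.91 to 12.01 in MADS29-KD, and *GLUB-4* was at background. Of 7 green pericarp markers 1 rose and 3 were called lower, and the mean of the 7 was 8.38 to 8.57 in WT and 7.96 to 8.21 in MADS29-KD. Of 4 genes listed for the nucellus 2 rose, *OsCP1* (1.83) and *OsVPE1* (1.13), and 1 was called lower, *OsMADS29*, the silenced gene itself. The mean of these 4 genes was 6.70 to 6.86 in WT and 7.0 to 7.09 in MADS29-KD. *OsCP1* was planned as an anther and pollen marker but matched the nucellus list by name. The nucellus counts thus include it and the anther and pollen counts do not. Of 4 anther and pollen markers 1 rose and 1 was called lower, and the defining genes *TDR* and *C6* were at background. The mean of these 4 markers was 3.98 to 4.04 in WT and 4.14 to 4.19 in MADS29-KD. The part of these tissues in the heat shock results was not tested, and in whole seeds more cells of a type and more RNA per cell cannot be told apart.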

How the data were processed

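Biotin-labelled cRNA made from 500 ng of total RNA was hybridised to 6 arrays. Probe set values were deposited as intensity on a linear scale, from 3.98 to 16101, in 1 table. How the authors corrected, summarized and normalized them, and with what software, is not given in the sources used here. Arrays carry no read depth, and 3 arrays per group limit the precision.

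Groups came from the labels. Control probe sets were left out, and log2 values of the other 57194 were fitted with lmFit and eBayes of limma 3.58.1 (R 4.3.3), without a block, and p-values adjusted by Benjamini-Hochberg over all of them, with calls at an adjusted p under 0.05. Of the probe sets fitted, 22436 had 1 gene in the annotation, 95 had several and 34663 had no gene listed. Only the first were used, with the brightest of each gene. Names and gene order came from RefSeq assembly ASM3414082v1, and no coordinates are printed because the array's build is not named. Classes were taken from the symbol. Background was the 95th percentile of the foreign probe sets on each array. A gene at background on all arrays of 1 group but not of the other has a bound only. It is given as at least N-fold from the bright group's mean and, per array, the higher of signal and background. A gene at background in both groups has no bound.

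Members, lists and markers were chosen with earlier results of these data known. Chaperonins were also listed, and 0 genes matched. Array values were given for *OsMADS29*, *OsHsp18.6*, *OsHsp16.9A*, *CLPB1*, every member called with at least 2-fold, the smallest adjusted p of each class and, chosen after their values were seen, other members whose probe sets or groups are described. For each list up to 3 genes called in each direction were named.

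Alternatives were quantile normalization, median centring, a filter on dim probe sets, each array left out, replicate number or 5′ actin class as a block, the 4 arrays with 5′ actin signal, array weights, a trended robust variance, the mean of a gene's probe sets, no x_at or s_at probe sets, 2-fold thresholds and, added after seeing the data, no *HSFA2C* and *HSFA2D*. Replicate numbers did not pair the arrays, since deviations from the group means correlated at −0.54, −0.54 and 0.43 for equal numbers and at −0.54 to 0.68 for different numbers.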

Additional observations from a re-analysis of the deposited data

How the results depend on the processing

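The 16 genes called higher were 13 to 16 with 1 array left out and 13 to 22 under the other alternatives but 1. With the replicate number as a block, 6 were higher and 2 lower, and *OsMADS29* had an adjusted p of 0.0796 (limma). Of all 57194 probe sets, 2901 were called higher in the main fit, 1499 to 2490 with 1 array left out and 997 with that block. The 22 came from the filter on dim probe sets, which left 40 members and called 3421 of 19928 probe sets higher. Deviations of arrays with equal numbers correlated at −0.54, −0.54 and 0.43 and those with different numbers at up to 0.68. These values depend on each other, so they cannot decide whether the numbers pair the arrays. Of the 20 calls, 13 higher and 1 lower (*HSFA3*) held in the 14 fits without that block, and 7 held in every fit when it was included. The 4 called lower were 1 to 4 with 1 array left out, 7 with the 5′ actin class as a block, 2 with the mean over probe sets, 2 without x_at and s_at probe sets, and 0 at 2-fold with either p. Of all probe sets, 3589 were called lower in the main fit, 2097 to 3191 with 1 array left out and 4577 with the 5′ actin class as a block. *OsHsp18.0* and *HSFA2C* turned to 0.09 and 0.47 (adjusted p = 0.596 and 0.00956) with the mean over probe sets, since their probe sets disagree. A filter on dim probe sets, which removes genes near 0, gave medians of 0.55 for all members, 0.56 for factors and 1.19 for small heat shock proteins, which were at 0.91 without x_at and s_at probe sets. The HSP101/CLPB median of 3 genes was 1.11 with quantile normalization, 0.83 in the 4 arrays with 5′ actin signal, 1.16 with array weights, 0.54 without x_at and s_at probe sets and 0.94 to 1.19 with 1 array left out. The HSP90 median was −0.22 with quantile normalization and −0.14 with the mean over probe sets. The cause of these moves was not tested where none is named. Signals near background limit the folds of dim genes.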
